A study of Mus musculus with 96 samples.

Results

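The 24-day plasma experiment in the cerebellum comprised 7 of the 96 bulk mRNA libraries of the series, 3 from mice given plasma of young mice and 4 from mice given PBS, the saline vehicle. The members were the cerebellum libraries that the labels place in the OPLTOPL (plasma) and OPLTPBS (PBS) groups of the first experiment. All 7 animals were male C57BL/6J mice of 19 months, injected on 24 consecutive days, and each library came from 1 mouse. They are named here by the mouse numbers of the labels, 23, 25 and 27 for plasma and 24, 26, 28 and 29 for PBS. The cortex and hippocampus of the same 7 mice were also sequenced. Further cerebellum groups used below were untreated (naive) mice labelled 2 months (n = 4; the series description gives 3 months for its young mice) and 18 months (n = 3), and mice treated on 7 consecutive days, at 18 months with PBS (n = 4) or plasma (n = 5) and at 22 months with PBS (n = 3) or plasma (n = 3). The dose, the site of injection and the preparation of the plasma are not given in the sources used here. A second number in the titles, 33642 for all plasma mice and 33643 for all PBS mice of 19 months, cannot be told apart from the treatment.

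The cerebellum is built mainly from granule cells, small excitatory neurons that outnumber all other neurons of the brain, and from Purkinje cells, the inhibitory neurons that carry the output of its cortex. Bergmann glia support the Purkinje cells, and the choroid plexus of the fourth ventricle lies against the tissue. Blood plasma from young animals carries proteins that have been studied as candidates for altering inflammation, vessels and synapses in the aged brain.

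The plasma libraries held 10123848, 13066837 and 18786091 counts (mice 23, 25 and 27). The PBS libraries held 4179783, 5004309, 9784675 and 851288 counts (mice 24, 26, 28 and 29). Every plasma library was thus deeper than every PBS library, so depth cannot be told apart from treatment in these groups. The library of PBS mouse 29 stood apart, with correlations across genes of 0.939 to 0.951 with the other 6, which correlated at 0.970 or more among themselves. Granule cell markers defined the tissue in all 7 libraries, with a summed level of 3470 to 3951 CPM (counts scaled to a library total of 1000000) under plasma and 3802 to 4529 CPM under PBS. Markers of lymphocytes and plasma cells summed to at most 1.92 CPM in either group, and no member of that list passed the filter on low counts.

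No gene passed an adjusted p of 0.05 between 24 days of plasma and 24 days of PBS (0 of 17185 genes tested, 0% called, edgeR's quasi-likelihood test with Benjamini-Hochberg adjustment). The smallest adjusted p was 0.632, for Mycbpap, a gene singled out after its values were seen, whose mean was 5.68 CPM under plasma and 2.94 CPM under PBS. At an unadjusted p under 0.05, 591 genes were higher under plasma (3.44% of those tested) and 556 were lower (3.24%). DESeq2 also called 0 genes, with 731 at an unadjusted p under 0.05, and limma-voom called 0, with 1572. The plasma and PBS groups did not overlap in CPM in 575 higher genes (3.35%) and 458 lower genes (2.67%). The median change over all genes was 0.00 on the log2 scale, 1 quartile lay at -0.09 and the other at 0.10, and the median standard error was 0.12. The p-values measure the spread between mice.

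The library of PBS mouse 24 lay at the end of many of these differences. It was the lowest of the 7 in 44.2% of the genes that were higher under plasma at an unadjusted p under 0.05, against 17.8% of all genes tested. It was the highest in 42.6% of the genes that were lower, against 18.5% of all genes. Plasma mouse 25 was the highest library in 44.7% of the higher genes, against 14.2% of all genes. Choosing genes by direction itself places most ends in the matching group. The shares over all genes are therefore not a like baseline. Among the higher genes PBS mice 26, 28 and 29 were the lowest in 11.8%, 9.98% and 33.2%. Plasma mice 23 and 27 were the highest in 23% and 25.4% of them. Among the lower genes PBS mice 26, 28 and 29 were the highest in 23.6%, 7.01% and 26.8%. Without mouse 24, 638 genes lay at an unadjusted p under 0.05, and without mouse 25, 794 did, against 1147 with all 7 libraries. Leaving out each of the other mice gave 978 (plasma mouse 27) to 1705 (PBS mouse 28), with 1642 for plasma mouse 23. Medians of many lists below moved with single libraries, and some of these values are given beside them.

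Genes of protein folding in the endoplasmic reticulum (ER) were higher under plasma more often than lower. When unfolded proteins collect in the ER, the sensors of the unfolded protein response activate transcription factors such as Xbp1 and Atf6, which bind promoters of chaperone genes. Of 18 genes in the list, 16 were higher and 2 were lower, with a median log2 change of 0.20, beside 50.7% higher and a median of 0.00 over all genes tested. None passed the adjusted threshold. At an unadjusted p under 0.05, 9 were higher and 1 was lower, beside 3.44% and 3.24% of all genes, and 3 were higher without overlap between the groups, beside 3.35%. The list has no test of its own here and, like the other lists below, was chosen with earlier results of these data known.

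A promoter element that Atf6 binds together with the factor NF-Y, the ER stress element, holds the letters CCAAT and CCACG with 9 bases between them. In the RefSeq promoter windows (GRCm38.p6, 250 bases before the annotated start), it was found on either strand in 0.113% of 32851 windows and in 6 of the 17 list genes that had a window. Those 6 were Hspa5, Hsp90b1, Pdia6, Calr, Canx and Creld2. The windows of the pair that also lay at an unadjusted p under 0.05, Hspa5 (chr2:34771840-34772089, plus strand) and Pdia6 (chr12:17266339-17266588, plus strand), are shown with both motifs of the element in capitals.
Hspa5: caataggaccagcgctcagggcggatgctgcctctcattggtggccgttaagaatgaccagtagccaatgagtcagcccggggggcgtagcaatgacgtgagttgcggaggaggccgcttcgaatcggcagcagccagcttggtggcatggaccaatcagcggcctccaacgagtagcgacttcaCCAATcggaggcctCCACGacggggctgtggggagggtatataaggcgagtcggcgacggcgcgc
Pdia6: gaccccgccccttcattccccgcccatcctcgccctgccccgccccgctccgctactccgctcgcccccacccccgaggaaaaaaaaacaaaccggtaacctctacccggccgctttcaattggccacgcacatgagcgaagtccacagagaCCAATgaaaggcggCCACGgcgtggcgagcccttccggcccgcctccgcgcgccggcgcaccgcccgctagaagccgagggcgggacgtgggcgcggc
A match is a description of the letters and was not read as a bound site.

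Hspa5 encodes BiP, the main chaperone of the ER lumen. It measured 315, 434 and 356 CPM in plasma mice 23, 25 and 27 and 267, 296, 318 and 349 CPM in PBS mice 24, 26, 28 and 29. Mouse 25 stood highest and the groups overlapped through mouse 23, with a log2 change of 0.27 ± 0.10 (SE; edgeR adjusted p = 0.680). Pdia6, a disulphide isomerase, measured 94.6, 119 and 102 CPM under plasma and 77.5, 89.9, 88.6 and 102 CPM under PBS. Its log2 change was 0.26 ± 0.08 (edgeR adjusted p = 0.674), and PBS mouse 29 overlapped the plasma group. Manf, a secreted ER-resident factor that protects neurons, measured 45.6, 50.7 and 41.9 CPM under plasma and 36.1, 36.0, 38.9 and 41.1 CPM under PBS. All 3 plasma values lay above all 4 PBS values, with a log2 change of 0.29 ± 0.09 (edgeR adjusted p = 0.674).

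Xbp1, the transcription factor whose spliced form drives ER chaperone genes, measured 168, 192 and 174 CPM under plasma and 148, 148, 159 and 157 CPM under PBS. The groups did not overlap, and the log2 change was 0.22 ± 0.07 (edgeR adjusted p = 0.674). The co-chaperone Dnajb9 also did not overlap, with 82.8, 80.9 and 90.9 CPM against 75.6, 68.5, 77.7 and 71.7 CPM. The remaining genes higher at an unadjusted p under 0.05 were Pdia4, Dnajb11, Hyou1 and Sdf2l1, with log2 changes of 0.26, 0.20, 0.22 and 0.34. Atf4 and Trib3, from the branch that responds to amino acid shortage as well as to ER stress, gave other values. Atf4, the transcription factor of that branch, had a log2 change of 0.00. Trib3, a pseudokinase induced by Atf4, had one of -0.80 ± 0.32 (edgeR adjusted p = 0.680). Of the 18 list genes 2 were lower, Trib3 among them. Other list members, among them Atf3, Chac1 and Ddit3, are not described here, so this pair does not stand for the whole branch. Trib3 measured 2.86, 2.14 and 1.97 CPM under plasma and 5.74, 4.40, 2.86 and 2.35 CPM under PBS, with mice 24 and 26 highest.

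The ER list kept a median above 0 in all 16 alternative settings, from 0.14 to 0.25, with 14 to 16 of 18 genes higher. Without plasma mouse 25, 4 genes in place of 10 lay at an unadjusted p under 0.05. With the level of choroid plexus markers as a covariate the count was 5 and the median 0.14, and with brainstem markers it was 4 and 0.15. In the cortex of the same mice 17 of the 18 genes were higher, with a median of 0.08, and in the hippocampus 12 were, with a median of 0.07. At 7 days the list had a median of 0.05 at 18 months and -0.01 at 22 months.

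**Figure D1:**
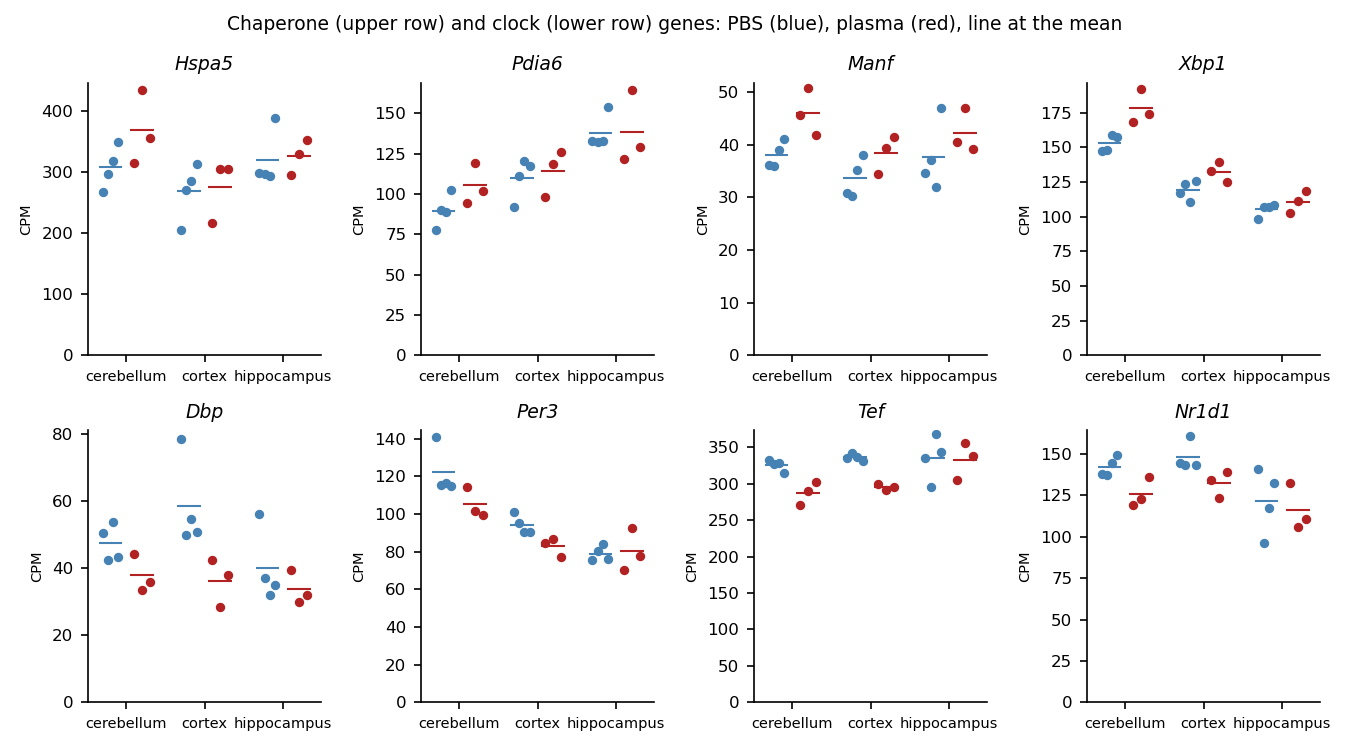
CPM of 4 genes of the ER list (upper row) and 4 clock genes (lower row) in each library of the 24-day groups, by brain region, with PBS mice in blue, plasma mice in red and a line at each group mean. In the cerebellum Manf and Xbp1 did not overlap between groups, and Tef and Dbp were lower under plasma in the cortex without overlap. The whole clock list had 11 of 18 genes higher in the cortex.

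Circadian clock genes were lower under plasma more often than higher. In the core loop Arntl (Bmal1) and Clock activate the Per, Cry and Nr1d genes and the output factors Dbp, Tef and Hlf, and the Per and Cry proteins then repress their own transcription. Of 18 clock genes, 14 were lower and 4 were higher, with a median log2 change of -0.11, beside 49.3% lower over all genes tested. None passed the adjusted threshold, and 5 were lower at an unadjusted p under 0.05 (3.24% of all genes). The groups did not overlap in 3 genes on the lower side, Per3, Tef and Nr1d1, and in 1 on the higher side, Arntl, beside 2.67% and 3.35% of all genes. The summed level of the circadian clock list was 1641, 1681 and 1689 CPM under plasma and 1796, 1761, 1862 and 1803 CPM under PBS, without overlap. The time of day at which the tissue was taken is not given in the sources used here.

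Dbp, a factor that binds D-box elements and follows the clock closely, measured 44.2, 33.4 and 36.0 CPM in plasma mice 23, 25 and 27. It measured 50.5, 42.4, 53.9 and 43.5 CPM in PBS mice 24, 26, 28 and 29. Only mouse 23 overlapped the PBS range, and the log2 change was -0.38 ± 0.10 (edgeR adjusted p = 0.674). Tef, a relative of Dbp, measured 271, 289 and 303 CPM under plasma and 332, 327, 328 and 315 CPM under PBS, a log2 change of -0.19 ± 0.07 (edgeR adjusted p = 0.680). Per3, a period gene, measured 114, 101 and 99.5 CPM against 141, 116, 117 and 115 CPM, with mouse 24 well above the other PBS mice. Nr1d1 (Rev-erb alpha), the repressor of Arntl, measured 119, 123 and 136 CPM against 138, 137, 144 and 149 CPM. Arntl itself measured 62.9, 63.7 and 64.8 CPM against 58.6, 57.2, 62.1 and 61.1 CPM, with a log2 change of 0.09 ± 0.08.

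The promoter windows of this list were searched for the E-box CACGTG, which the Arntl and Clock proteins bind, and the D-box TTATGTAA, which Dbp and Tef bind, on either strand. The 15 clock genes with a window had 20 windows. The E-box was found in 6.02% of all windows and in 6 of these 20, which belong to 5 of the 15 genes. The D-box was found in 0.819% of all windows and in 1 of the 20, in 1 gene. Ciart, a repressor of the loop, had 3 E-boxes in its window (chr3:95882229-95882478, minus strand), and Per3 had 2 D-boxes (chr4:151044666-151044915, minus strand). Both are shown with the matches in capitals, since each was lower at an unadjusted p under 0.05.
Ciart: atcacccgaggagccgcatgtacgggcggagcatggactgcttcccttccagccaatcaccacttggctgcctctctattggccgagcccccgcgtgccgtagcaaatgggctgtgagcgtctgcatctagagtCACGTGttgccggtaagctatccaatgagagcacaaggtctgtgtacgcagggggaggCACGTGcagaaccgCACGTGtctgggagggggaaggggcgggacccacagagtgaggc
Per3: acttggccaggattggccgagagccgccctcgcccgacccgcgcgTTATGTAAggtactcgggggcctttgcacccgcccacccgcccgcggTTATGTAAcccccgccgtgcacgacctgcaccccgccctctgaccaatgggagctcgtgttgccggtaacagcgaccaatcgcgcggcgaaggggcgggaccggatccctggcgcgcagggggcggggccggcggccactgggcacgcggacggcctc
Ciart measured 12.1, 12.7 and 15.1 CPM under plasma and 14.8, 17.4, 17.1 and 12.9 CPM under PBS, and mouse 29 lay inside the plasma range.

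The clock list kept a median below 0 in all 16 alternative settings, from -0.14 to -0.08, with 3 to 6 of 18 genes higher. In the cortex Dbp measured 42.4, 28.4 and 38.1 CPM under plasma and 78.6, 49.9, 54.7 and 50.9 CPM under PBS, without overlap, and its log2 change was -0.71. In the hippocampus Dbp overlapped, with a log2 change of -0.25. Tef was also lower without overlap in the cortex, at 299, 291 and 295 CPM against 335, 341, 337 and 331 CPM. The list as a whole had 11 of 18 genes higher in the cortex, with a median of 0.04, and 8 of 18 in the hippocampus. In the cortex 3 of the 18 were higher and 2 lower at an unadjusted p under 0.05. Of all 19490 genes there, 233 were higher and 441 lower at that p. At 7 days the list had 7 of 18 genes higher at 18 months and 12 of 18 at 22 months.

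**Figure D2:**
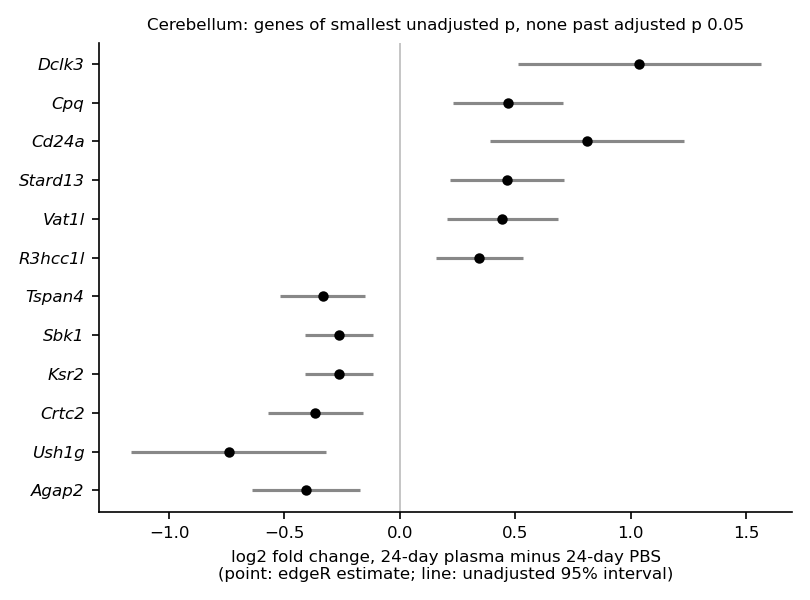
Log2 fold change (point) with its unadjusted 95% interval (line) for named genes in the cerebellum, 24-day plasma minus 24-day PBS. Shown are the 6 higher and 6 lower genes of smallest unadjusted p with a mean of at least 5 CPM and groups that do not overlap. All were chosen by this contrast, and none passed an adjusted p of 0.05.

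The genes named next were chosen by this contrast, as the 12 per direction of smallest unadjusted p with a mean of at least 5 CPM and groups that do not overlap, so their values are a description. Among the 12 higher genes the log2 changes ran from 0.21 to 1.04. Dclk3, a doublecortin-like kinase (chromosome 9, 111439081 to 111489118, GRCm38), measured 7.01, 8.19 and 8.04 CPM under plasma and 1.20, 4.80, 4.60 and 3.52 CPM under PBS. Its log2 change was 1.04 ± 0.26 (edgeR adjusted p = 0.674), and mouse 24 was far below the rest of its group. Cd24a, a surface glycoprotein, measured 8.40, 9.95 and 14.4 CPM against 4.55, 6.39, 7.15 and 7.05 CPM. Cpq, a secreted carboxypeptidase, measured 24.0, 27.4 and 24.5 CPM against 16.0, 21.4, 17.3 and 18.8 CPM, a log2 change of 0.47 ± 0.12. Stard13, a GTPase-activating protein, measured 18.8, 18.6 and 17.4 CPM against 12.4, 13.8, 13.6 and 10.6 CPM. Vat1l measured 106, 133 and 108 CPM against 68.4, 90.7, 86.97 and 105 CPM.

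Psat1, an aminotransferase of serine synthesis, measured 81.6, 91.4 and 91.7 CPM under plasma and 65.6, 71.3, 80.7 and 71.7 CPM under PBS. Slc25a5, an ADP/ATP carrier of the inner mitochondrial membrane, measured 330, 296 and 328 CPM against 256, 269, 290 and 281 CPM. Hadhb, a subunit of the enzyme of mitochondrial fatty acid oxidation, measured 110, 99.1 and 110 CPM against 90.4, 84.7, 98.1 and 89.3 CPM. Ppa2, the mitochondrial pyrophosphatase, had a log2 change of 0.28 ± 0.09. Tpst1, a tyrosine sulphotransferase of the Golgi, Arl6ip5, an ER membrane protein, and R3hcc1l had log2 changes of 0.23, 0.21 and 0.34.

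The log2 changes of the 12 lower genes ran from -0.74 to -0.20. Rbfox3, the neuronal splicing factor known as NeuN, measured 348, 323 and 322 CPM under plasma and 427, 396, 373 and 378 CPM under PBS, a log2 change of -0.26 ± 0.08 (edgeR adjusted p = 0.674). Syt7, a calcium sensor of vesicle release, measured 113, 100 and 107 CPM against 128, 140, 114 and 120 CPM. In Syt7 the closest PBS library, mouse 28, lay just above mouse 23.

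Crtc2, a coactivator of the factor CREB, measured 42.4, 42.2 and 40.8 CPM under plasma and 64.1, 58.3, 43.8 and 47.0 CPM under PBS. Ksr2, a scaffold of the ERK kinase pathway, measured 44.0, 41.4 and 41.7 CPM against 53.6, 52.4, 48.4 and 44.6 CPM. Tspan4, a tetraspanin, measured 72.0, 49.8 and 60.5 CPM against 75.4, 77.9, 74.7 and 77.5 CPM, so that the plasma mice were spread and the PBS mice were close together. Ush1g, a scaffold protein known from sensory hair cells, had the largest change of the 12, -0.74 ± 0.21, at 4.44, 4.06 and 5.06 CPM against 11.5, 6.99, 5.83 and 5.87 CPM. Sbk1, Agap2, Pitpnm3, Dpysl4 and Slc43a2 had log2 changes of -0.26, -0.41, -0.29, -0.26 and -0.20.

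Markers of the main cerebellar neurons were slightly lower under plasma. All 11 granule cell markers were lower, with a median log2 change of -0.14 and 3 lower at an unadjusted p under 0.05, beside 49.3% lower and 3.24% so called over all genes. None passed the adjusted threshold. In bulk tissue, fewer cells of a type and less RNA per cell cannot be told apart. Calb2, a calcium-binding protein, measured 439, 384 and 388 CPM under plasma and 598, 448, 442 and 441 CPM under PBS. Mouse 24 stood far above the rest, and mouse 23 lay just below the other PBS mice. Grin2c, the glutamate receptor subunit of mature granule cells, measured 178, 173 and 168 CPM against 254, 225, 163 and 231 CPM, with mouse 28 below the plasma group. Gabra6, the GABA receptor subunit that defines the cell type, measured 435, 392 and 401 CPM against 440, 403, 423 and 459 CPM, a log2 change of -0.07 ± 0.06 (edgeR adjusted p = 0.872). Without mouse 24, 2 of the 11 genes were higher and the median was -0.06, and without plasma mouse 27, 1 was higher and the median was -0.07. Without plasma mouse 23 the median was -0.20.

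Of 12 Purkinje cell markers, 10 were lower, with a median log2 change of -0.10, or -0.04 without plasma mouse 25 and -0.14 without mouse 23. Pcp2, a modulator of G proteins found in Purkinje cells, measured 367, 229 and 274 CPM under plasma and 458, 362, 295 and 361 CPM under PBS, a log2 change of -0.35 ± 0.14 (edgeR adjusted p = 0.683). The Pcp2 exons overlap those of Pet100 on the opposite strand over 51.5% of their length, and the libraries do not mark strand. Among synapse genes 18 of 26 were lower, with a median of -0.06, and 5 were lower at an unadjusted p under 0.05, beside 49.3% lower and 3.24% so called over all genes. These 5 were Bsn, Shank1, Shank2, Shank3 and Vamp2, of which the first is a scaffold of the release site, the Shank genes encode postsynaptic scaffolds, and Vamp2 encodes a vesicle SNARE. Shank1 measured 175, 177 and 161 CPM against 197, 217, 182 and 213 CPM. Of 10 cerebellar interneuron markers 7 were higher (median 0.04, or 0.01 to 0.09 without single libraries).

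**Figure D3:**
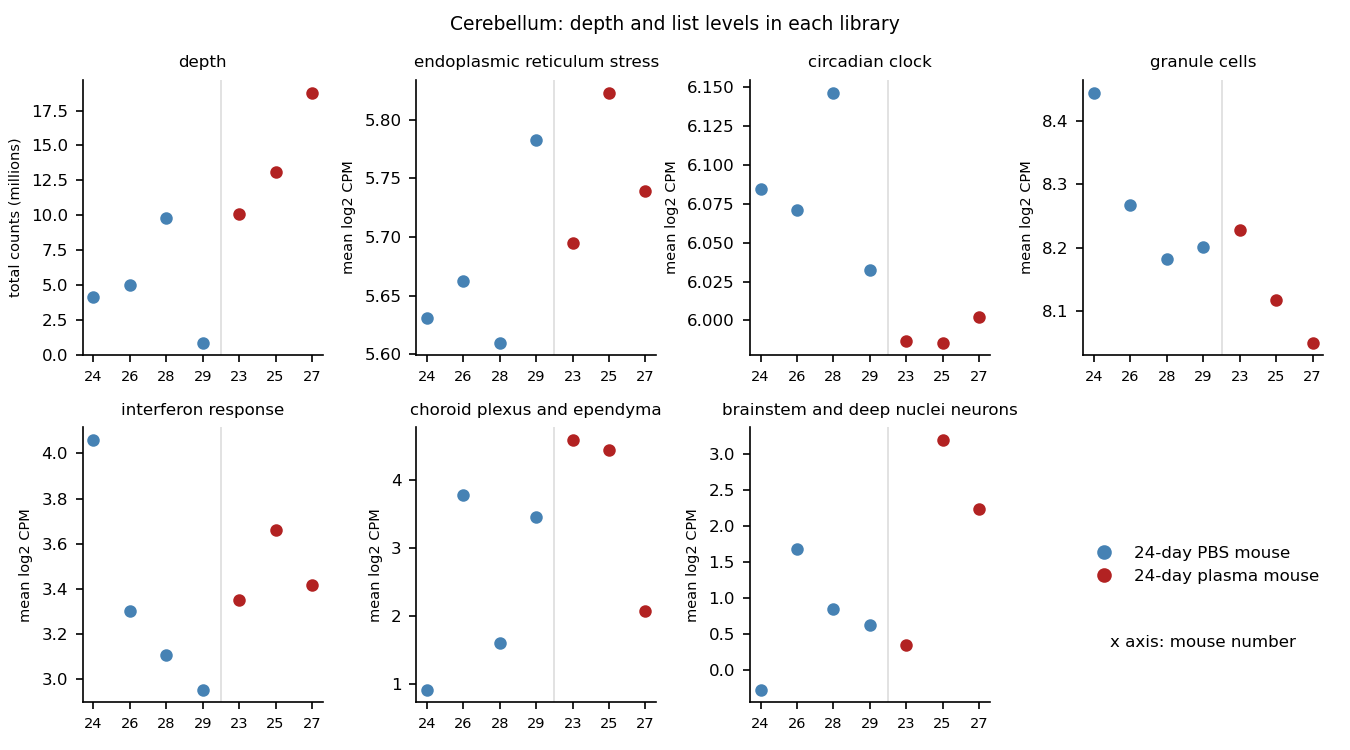
Total counts and the mean log2 CPM of 6 gene lists in each cerebellum library, PBS mice 24, 26, 28 and 29 in blue and plasma mice 23, 25 and 27 in red. The clock list did not overlap between the groups, depth did not either, and the choroid plexus and brainstem lists were spread widely within both groups.

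Markers of tissue beside the cerebellar cortex varied widely between mice of 1 group. All 13 genes of the choroid plexus and ependyma list were higher, with a median log2 change of 1.43, and 11 lay at an unadjusted p under 0.05 (3.44% of all genes were higher at that p), but within-group spread was large. Ttr, the transport protein that choroid plexus makes in bulk, measured 1636, 1083 and 11.6 CPM in plasma mice 23, 25 and 27. It measured 3.11, 842, 5.62 and 584 CPM in PBS mice 24, 26, 28 and 29, with a log2 change of 1.43 ± 1.10 (edgeR adjusted p = 0.848). High and low libraries thus occurred in both groups. The summed level of the list ranged from 230 to 2804 CPM under plasma and from 165 to 1457 CPM under PBS. Enpp2, a secreted lysophospholipase of the same epithelium, measured 974, 916 and 175 CPM against 130, 505, 133 and 505 CPM. Leaving out mice in turn moved the list's median between 0.95 and 2.36. In the hippocampus of the same mice 12 of the 13 genes were higher, with a median of 1.45, beside 48.6% of all genes. In the cortex 8 of the 13 were, with a median of 0.17, beside 47.1% of all genes.

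Genes that mark brainstem and deep nuclei neurons behaved alike. All 6 that passed the filter were higher, with a median log2 change of 1.56, which was 0.57 without plasma mouse 25 and 2.65 without PBS mouse 26. Tph2, the serotonin-synthesis enzyme of raphe neurons, measured 0.494, 14.7 and 1.38 CPM under plasma and 0, 0.400, 1.23 and 2.35 CPM under PBS. Slc17a6, the glutamate transporter of these nuclei, measured 29.3, 65.6 and 64.2 CPM against 16.0, 27.0, 42.9 and 67.0 CPM. The list summed to 34.2 to 101 CPM under plasma and 19.4 to 72.8 CPM under PBS. Its part in the lower granule cell values was not tested as a cause. With the list's level as a covariate, 5 of 11 granule cell genes were higher and their median was -0.03.

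A set of 51 symbols of motile cilia, chosen after the values were seen, had 43 genes higher, a median log2 change of 0.32 and 15 genes higher at an unadjusted p under 0.05, beside 50.7% higher and 3.44% so called over all genes. The choice of symbols used these values, so the counts are a description. Motile cilia drive fluid flow and are made by ependymal cells. The set summed to 396, 408 and 377 CPM under plasma and 328, 354, 356 and 328 CPM under PBS, without overlap. In naive mice of 18 months it summed to 389, 396 and 384 CPM, inside the plasma range and above all of these PBS values. With 7 days of PBS it summed to 371, 349, 385 and 384 CPM at 18 months. At 22 months the 7-day PBS values were 384, 403 and 403 CPM. Naive mice of 2 months gave 331, 383, 299 and 341 CPM. Whether the plasma group was raised or its PBS group was low was not tested. Tmem212, an ependymal membrane protein, was the 1 member of the choroid plexus and ependyma list whose groups did not overlap, at 1.48, 1.22 and 1.76 CPM against 0, 0.200, 1.02 and 0 CPM. Foxj1, the transcription factor that directs motile cilia, measured 8.20, 10.4 and 7.88 CPM against 4.31, 8.19, 5.31 and 9.40 CPM. For Tmem212 the counts were few, and the shallow libraries were those at 0.

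**Figure D4:**
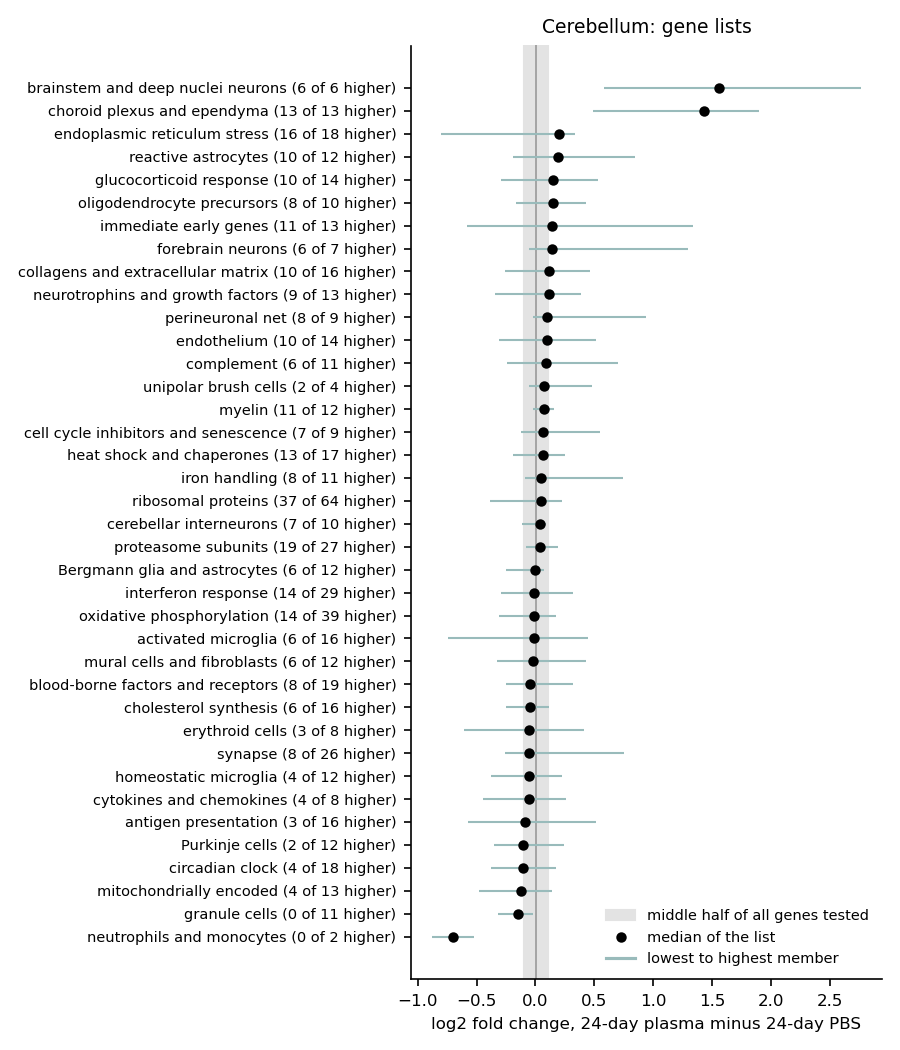
Median log2 change (point) and the range of members (line) for each gene list in the cerebellum, with the number of members higher, beside the range between the quartiles of all genes tested (grey). Brainstem and choroid plexus lists lay farthest to the right, and of the lists with over 2 members the granule cell list lay farthest to the left.

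Glia and vessels showed small differences. Reactive astrocyte genes had 10 of 12 higher and a median log2 change of 0.19, with none at an unadjusted p under 0.05. The median was 0.10 without plasma mouse 25, 0.11 without mouse 27 and 0.23 without mouse 23. Gfap, the astrocyte filament protein, measured 316, 264 and 361 CPM under plasma and 241, 272, 295 and 287 CPM under PBS, a log2 change of 0.20 ± 0.10 (edgeR adjusted p = 0.754). Oligodendrocyte precursor genes had 8 of 10 higher, and Bcas1, a marker of newly forming oligodendrocytes, did not overlap at 94.4, 109 and 108 CPM against 88.8, 79.5, 78.8 and 92.8 CPM. The median of the oligodendrocyte precursor genes was 0.14, or 0.24 without mouse 23, and without mouse 27, 5 of 10 were higher. Myelin genes had 11 of 12 higher with a median of 0.07, but 6 of 12 with a median of -0.00235 without plasma mouse 27. Endothelial genes had 10 of 14 higher with a median of 0.09, and 8 of 14 with a median of 0.05 without PBS mouse 24. Kdr, the main receptor for Vegfa on endothelium, measured 17.6, 15.8 and 15.6 CPM against 13.9, 10.8, 11.5 and 10.6 CPM, without overlap. Slco1c1, the thyroxine transporter of the blood-brain barrier, measured 31.8, 31.3 and 20.1 CPM against 16.3, 17.4, 21.2 and 24.7 CPM, and Tek, an angiopoietin receptor, had a log2 change of -0.31. Slco1c1 also lies in choroid plexus, whose markers were high in the mice with its highest values, 23 and 25, and their part in it was not tested.

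Medians of the microglia, antigen presentation and interferon lists were slightly below 0, and that of complement genes was 0.09. Over all genes tested 50.7% were higher, with a median of 0.00. Homeostatic microglia genes had 4 of 12 higher (median -0.06), activated microglia genes 6 of 16 (median -0.02) and antigen presentation genes 3 of 16 (median -0.09). Without single libraries the homeostatic median ran from -0.12 (without PBS mouse 28) to -0.01 (without mouse 24). The activated median ran from -0.08 (without plasma mouse 23) to 0.06 (without mouse 25), and that of antigen presentation from -0.20 (without mouse 28) to -0.01 (without mouse 24, 8 of 16 higher). The homeostatic and antigen presentation medians stayed below 0 in all 16 alternative settings. Interferon response genes had 14 of 29 higher with a median of -0.01. The median moved with PBS mouse 24, whose summed interferon level was 733 CPM against 409 to 467 CPM in the other PBS mice and 474 to 598 CPM under plasma. Without mouse 24, 24 of 29 were higher with a median of 0.35, and without mouse 28, 4 of 29 were with a median of -0.20. C4b, the complement component that marks brain ageing, measured 43.6, 52.9 and 55.8 CPM against 53.1, 30.6, 45.2 and 51.7 CPM, a log2 change of 0.22 ± 0.12 (edgeR adjusted p = 0.764). Haemoglobin gene Hbb-bs measured 5.93, 1.07 and 16.6 CPM against 25.6, 1.20, 2.25 and 9.40 CPM, with high and low libraries in both groups.

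Genes of protein turnover and energy supply moved little. Proteasome subunits had 19 of 27 higher with a median log2 change of 0.04, and 4 were higher at an unadjusted p under 0.05 (3.44% of all genes), among them Psmd12 at 85.0, 88.1 and 88.5 CPM against 74.9, 76.5, 80.8 and 76.4 CPM. Without plasma mouse 23 the proteasome median was 0.01 with 15 of 27 higher. Ribosomal protein genes had 37 of 64 higher (median 0.04), but 25 of 64 without mouse 23 (median -0.06) and 54 of 64 without mouse 25 (median 0.07). Nuclear genes of oxidative phosphorylation had 14 of 39 higher (median -0.01), but 7 of 39 without mouse 23 (median -0.08) and 33 of 39 without mouse 25 (median 0.03), so the direction of both lists depended on single plasma libraries. Mitochondrially encoded genes had 4 of 13 higher with a median of -0.13, which was -0.29 without mouse 23 and -0.07 without mouse 25. Among them mt-Nd6, a subunit of respiratory complex I, measured 367, 227 and 267 CPM against 455, 488, 258 and 399 CPM, with mouse 28 inside the plasma range. Immediate early genes had 11 of 13 higher with a median of 0.14, and 6 of 13 without plasma mouse 27. Fkbp5, a glucocorticoid-induced co-chaperone, measured 8.40, 13.5 and 13.7 CPM against 8.61, 8.79, 9.10 and 15.3 CPM, a log2 change of 0.36 ± 0.23 (edgeR adjusted p = 0.815).

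The age genes were read under plasma next. Between naive mice of 18 and 2 months, edgeR called 411 of 17185 genes at an adjusted p of 0.05 (2.39%), of which 228 were higher and 183 lower at the older age. The age genes were called on libraries that the 24-day contrast does not use. Of the 228 that were higher with age, 129 were lower under 24 days of plasma (56.6%, beside 49.3% of all genes), with a median log2 change of -0.02. Without PBS mouse 24 that median was 0.02. Of the 183 that were lower with age, 101 were lower under plasma (55.2%, beside 49.3% of all genes), with a median of -0.02. The median age change of the first set was 0.78 and of the second -0.34. After 7 days at 18 months, 141 of the 228 were higher under plasma (61.8%, beside 49.4% of all genes), with a median of 0.04. At 22 months 132 were (57.9%, beside 52.8% of all genes), with a median of 0.02. Of the 183 that were lower with age, 104 were lower after 7 days at 18 months (56.8%, beside 50.6% of all genes), with a median of -0.01. At 22 months 91 of the 183 were lower (49.7%, beside 47.2% of all genes), with a median of 0.00.

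**Figure D5:**
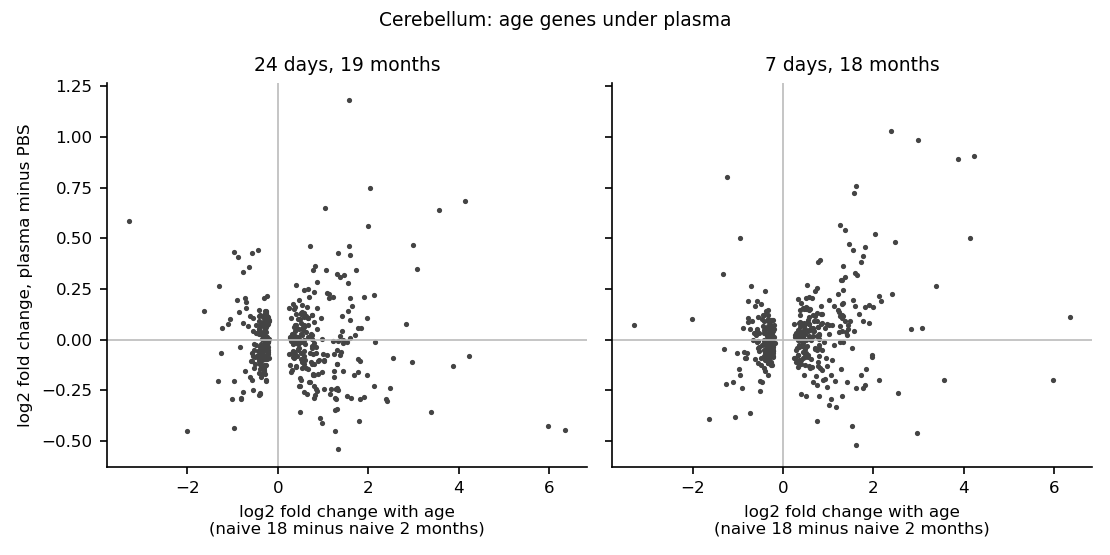
Log2 change with age in naive cerebellum (horizontal) against the log2 change under plasma (vertical) for the 411 age genes, after 24 days at 19 months (left) and 7 days at 18 months (right). Each point is 1 gene, and in both panels the plasma changes lie around 0, with medians of -0.02 and 0.04 for the genes higher with age. For the genes lower with age the medians were -0.02 and -0.01.

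Ageing itself was large in some of these genes. C4b measured 9.16 ± 2.22 CPM (SD, n = 4) in naive mice of 2 months and 40.8 ± 2.89 CPM (SD, n = 3) in naive mice of 18 months. It measured 45.1 ± 10.3 CPM (SD, n = 4) after 24 days of PBS and 50.7 ± 6.39 CPM (SD, n = 3) after 24 days of plasma. All 7 treated mice of 19 months thus lay above the 4 naive mice of 2 months, whose highest value was 12.3 CPM. Interferon response genes, all 29 higher with age with a median log2 change of 1.24, and antigen presentation genes, all 16 higher with a median of 1.17, had medians of -0.01 and -0.09 under 24 days of plasma.

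The change after 24 days at 19 months was compared with that after 7 days at 18 months by testing the difference itself. No gene passed (0 of 17185, 0% called, edgeR, with 534 at an unadjusted p under 0.05, DESeq2 0 and limma-voom 0). Duration, age and title number differ together between these groups. The pair of comparisons shares no library, and of the 591 genes higher after 24 days at an unadjusted p under 0.05, 418 were also higher after 7 days at 18 months (70.7%, beside 49.4% of all genes). Of the 556 lower genes, 387 were also lower (69.6%, beside 50.6%). At 22 months the opposite directions were more frequent, since 363 of the 591 were lower after 7 days (61.4%, beside 47.2%) and 357 of the 556 were higher (64.2%, beside 52.8%). The 24 named genes followed the same course, with 10 of the 12 higher genes higher at 18 months and 7 of 12 lower at 22 months.

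Marker levels differed in the same way across these comparisons. Brainstem and deep nuclei genes had a median log2 change of 1.56 after 24 days, 2.41 after 7 days at 18 months and -0.43 at 22 months. Granule cell genes had medians of -0.14, -0.09 and 0.08 in that order, and choroid plexus genes 1.43, 0.25 and -0.21. The part of these markers in the shared directions was not tested.

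Differences between brain regions of the same mice were tested over 87 libraries, with no term for the mouse. No gene differed in its 24-day change between cerebellum and cortex (0 of 19490, 0% called, edgeR, 831 at an unadjusted p under 0.05, DESeq2 0 and limma-voom 0). The smallest adjusted p was 0.103, for Cep41, a ciliary protein named here after its values were seen. Against the hippocampus no gene passed either (0 of 19490, 0% called, edgeR, 1211 at an unadjusted p under 0.05). Dclk3 had the smallest adjusted p, 0.0603, and passed in DESeq2 with an adjusted p of 0.00620, where it was the 1 gene called, while limma-voom called 0. With the mouse as a replicate block, Dclk3 again had the smallest adjusted p in edgeR, 0.215. In the hippocampus Dclk3 measured 12.4, 17.5 and 19.6 CPM under plasma and 45.8, 16.0, 22.5 and 23.4 CPM under PBS, opposite in direction to the cerebellum, and mouse 24 held the extreme in both tissues. The difference of the Dclk3 changes was 1.83 ± 0.36 on the log2 scale, and without hippocampus PBS mouse 24 its adjusted p in edgeR was 0.483. In the cortex Dclk3 measured 32.2, 39.9 and 43.6 CPM against 42.0, 39.6, 40.1 and 39.2 CPM, with overlap.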

How the data were processed

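The authors deposited a raw count for each of 35486 gene symbols in every library, not normalized. Per the labels' protocols, RNeasy-purified RNA went through Smart-Seq2 cDNA synthesis and Nextera XT tagmentation, which keeps no strand information. Per the submitters' processing notes, Trim Galore 0.3.7, STAR 2.5.3a, GRCm38 and DESeq2 were used. The counting tool and annotation are not given in the sources used here.

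Counts were analysed in R 4.3.3 with edgeR 4.0.16 (TMM, filterByExpr with a minimum count of 10 and a minimum total of 15, quasi-likelihood test, Benjamini-Hochberg adjustment over all genes), 1 coefficient per group over 29 cerebellum libraries. Region differences were interaction contrasts over 87 libraries. DESeq2 1.42.0 and limma-voom with quality weights (limma 3.58.1) were alternatives, as were other size factors, no filter, the compared groups alone, a choroid plexus covariate, and leaving libraries out. A brainstem covariate and thinning were added after seeing the data. Standard errors are the log2 change divided by the root of F. CPM scale counts to a total of 1000000, and list levels use log2 CPM with a prior count of 2. The scripts were tested on simulated data. The depth of 851288 to 18786091 counts limits precision, and PCR duplicates cannot be told apart.

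The named genes were the 12 per direction described in the text (symbols that are clone names left out; 1 of the lower genes is not reported here), 2 per list of smallest unadjusted p, and C4b, Gfap, Fkbp5, Ttr, Gabra6 and Hbb-bs. Members and the 39 lists were chosen with earlier results of these data known. Chi-square tests found no duplicated libraries. The same mouse gave all 3 regions, per the labels, and deviations from group means correlated at a median of 0.0337 between cerebellum and cortex and 0.0180 between cerebellum and hippocampus.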

Additional observations from a re-analysis of the deposited data

Results flagged for a closer look

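Within the 4 PBS libraries of the cerebellum, 103 named genes and 38 list levels were examined for a library whose gap to the nearest other exceeded Dixon's critical value, and 4 genes and 5 lists met this. Chance alone marks about 1 in 20 groups. PBS mice 24 and 29 each stood at the end of 4 of the 9. Mouse 24 was the highest for Calb2 (597.6 CPM, others 440.5 to 448.4) and Per3 (140.9 CPM, others 115.1 to 116.7), and the lowest for unipolar brush cell markers (4.75 mean log2 CPM, others 5.51 to 5.58) and for neutrophil and monocyte markers (-0.96, others 0.63 to 0.95). Mouse 29, the shallowest library, was the highest for Fkbp5 (15.3 CPM, others 8.61 to 9.10) and for myelin genes (7.38 mean log2 CPM, others 7.17 to 7.21), and the lowest for synapse genes (7.55, others 7.70 to 7.71) and cytokine and chemokine genes (2.81, others 3.44 to 3.54). Mouse 28 was the highest for Lhx2 (1.12 CPM), which was listed at 0 in the other 3.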

How the results depend on the processing

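The 24-day count stayed at 0 in every alternative except without PBS mouse 28, where 1 gene passed (Gm10252, named after its values were seen), so the leave-one-out range was 0 to 1. For the cortex difference the leave-one-out range was 0 to 1 (1, Cep41, without cerebellum plasma mouse 23). For the hippocampus difference the count was 1 with DESeq2 and 1 with no filter on low counts, Dclk3 in both, and 0 to 3 with single libraries left out (3, Dclk3 among them, without hippocampus PBS mouse 29). With the mouse as a replicate block both region differences stayed at 0 genes, with smallest adjusted p of 0.421 and 0.215 in edgeR. The number for the 7-day difference stayed at 0 in every setting run. For naive age genes of the cerebellum under 24-day plasma, lower with age, the median log2 change ranged from -0.0382 to -0.00238 with single libraries left out. Hbb-bs was unstable, with a log2 change of 0.79 in limma-voom, 0.0116 with no filter, 0.00259 without libraries under 2500000 counts, 0.53 with the choroid plexus covariate, 0.96 with the brainstem covariate and -1.34 to 1.79 with single libraries left out. The choroid plexus covariate gave -1.04 for Ttr and -0.0446 for Lmx1a, and the brainstem covariate -0.0479 for Camk2a, -0.34 for Slc5a7 and 0.00206 for Gabra6. The cause was not tested. Thinned to 1 depth without mouse 29, 0 genes passed and 1161 lay at an unadjusted p under 0.05. With a median standard error of 0.12, small log2 changes were not detectable here.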

Other observations

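The remaining lists of the cerebellum gave the following counts, beside 50.7% higher over all genes and with no member past an adjusted p of 0.05 in edgeR. Genes of the perineuronal net, the matrix around some neurons, had 8 of 9 higher under plasma with a median log2 change of 0.10, or 0.17 without plasma mouse 23. Heat shock and chaperone genes of the cytosol had 13 of 17 higher (median 0.07, from 0.03 without PBS mouse 24 to 0.16 without mouse 28). Glucocorticoid response genes had 10 of 14 higher (median 0.15, from 0.08 without plasma mouse 25 to 0.29 without mouse 23). Collagens and other matrix genes had 10 of 16 higher (median 0.11, or 0.03 without mouse 25), and neurotrophins and growth factors 9 of 13 (median 0.11, or 0.04 without mouse 28). Cell cycle inhibitors and senescence genes had 7 of 9 higher (median 0.07, or 0.13 without mouse 25), and iron handling genes 8 of 11 (median 0.05, or 0.02 without mouse 23). Forebrain neuron markers had 6 of 7 higher (median 0.14, from 0.06 without mouse 24 to 0.27 without mouse 28). Unipolar brush cell markers had 2 of 4 higher (median 0.08, or 0.02 without mouse 23).

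In 7 further lists the sign of the median depended on single libraries. Complement genes had 6 of 11 higher (median 0.09), with -0.11 without PBS mouse 28 and 0.33 without mouse 24. Erythroid genes had 3 of 8 higher (median -0.05), with -0.81 without plasma mouse 27 and 1.01 without mouse 24. Cytokines and chemokines had 4 of 8 higher (median -0.06), with 0.21 without mouse 28. Cholesterol synthesis genes had 6 of 16 higher (median -0.04), with 0.01 without mouse 23 and -0.09 without mouse 27. Blood-borne factors and their receptors had 8 of 19 higher (median -0.04), with 0.00814 without mouse 24 and -0.11 without mouse 28. Bergmann glia and astrocyte markers had 6 of 12 higher (median -0.01), with 0.02 without mouse 29 and -0.04 without mouse 24. Mural cells and fibroblasts had 6 of 12 higher (median -0.02), with 0.00894 without mouse 27 and -0.11 without mouse 28. Both tested genes of neutrophils and monocytes were lower (median -0.70).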
